A study of Drosophila melanogaster with 4 samples.

Results

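Summits of Eip78C-GFP chromatin immunoprecipitation that lay 1 to 200 bp upstream of a protein-coding transcription start site (TSS) numbered 606 of the 8282 peaks of the joint list (7.32%). A summit is the position of the peak maximum given in the deposited list, and a member was kept where the nearest protein-coding TSS of the dm6 Ensembl annotation lay at that distance downstream. Summits within 1 kb of a head-to-head pair, that is, of TSSs on opposite strands that face away from each other and lie 1 kb or less apart, were left out, because upstream of one gene is there also upstream of the other. The members belonged to 585 genes, 6.26% of the 9344 protein-coding genes with a base that could hold one. They were compared with the 994 summits over 200 and up to 1000 bp upstream and the 185 summits within 200 bp downstream, chosen by the same rule, as the most similar classes.

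The samples were 4 biological replicates of whole white prepupae of Drosophila melanogaster, of mixed sex, from 1 transgenic line in which Eip78C carried GFP at its C-terminus. An antibody against GFP was used for ChIP-seq. All 4 replicates carried the tagged protein, the labels name no treatment or age beyond the stage, and they give no promoter for the transgene. The peaks were called against a control alignment, but no input or untagged sample was among those analysed here, so the signal that untagged animals give at promoters was not tested. Only peak lists were used, without read counts, and the depth of the libraries is therefore unknown. Whole animals were used, so no cell type is named, and binding in few cells cannot be told apart from weak binding in many.

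Eip78C belongs to the Rev-erb type of nuclear receptors, and ecdysone, the moulting hormone, switches its gene on at the onset of metamorphosis. Rev-erb type receptors of mammals bind a nuclear receptor half-site with an A/T-rich extension, as monomers, or pairs of such sites, and mostly repress transcription. The stretch just upstream of a TSS is the core and proximal promoter, where RNA polymerase II is loaded. In the fly, promoters of broadly expressed genes often carry the DNA replication-related element (DRE) and the motifs numbered 1, 5, 6 and 7 in the catalogue of Ohler and colleagues, whereas promoters of regulated genes more often carry a TATA box, an initiator or runs of GA repeats.

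The stretches at the 5 strongest members of the joint list are given first, because they show what lies under the highest peaks. Each stretch is centred on the summit, is read 5′ to 3′ on the strand of the gene, is numbered on dm6 and ends before the TSS. The stretch of CG14100 is chr3L:19590560-19590659 on the minus strand, that of CG18549 is chr3R:12449134-12449233 on the plus strand, that of Hsp27 is chr3L:9383855-9383954 on the plus strand, that of CG31145 is chr3R:23669796-23669895 on the minus strand and that of CG13921 is chr3L:1746723-1746822 on the plus strand. Capitals would mark the DRE, motifs 1, 5 and 7, a GA repeat, a nuclear receptor half-site or its A/T-extended form, and the word ACAGTG described further on, and none of these 5 stretches holds one. The TATA box is not marked.
CG14100: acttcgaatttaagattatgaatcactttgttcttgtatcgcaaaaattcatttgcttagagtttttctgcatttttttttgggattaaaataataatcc
CG18549: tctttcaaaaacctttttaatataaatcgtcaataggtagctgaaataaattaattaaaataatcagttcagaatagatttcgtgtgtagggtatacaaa
Hsp27: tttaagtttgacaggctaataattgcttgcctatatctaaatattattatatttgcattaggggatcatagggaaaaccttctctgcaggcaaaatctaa
CG31145: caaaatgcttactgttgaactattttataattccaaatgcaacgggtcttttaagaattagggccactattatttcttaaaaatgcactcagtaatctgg
CG13921: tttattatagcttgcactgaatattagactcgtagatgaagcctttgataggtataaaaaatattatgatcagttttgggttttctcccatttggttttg

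A strong member for each of these elements is shown next, in a stretch centred on the element, which is in capitals, so that the letters behind the motif counts can be seen. CG11151 shows the DRE and also ACAGTG (chrX:13739428-13739507 on the plus strand). That ACAGTG lies outside the 200 bp window around the summit in which motifs were counted. CG10068 shows motif 1 on the reverse strand (chr3R:7128214-7128293 on the minus strand), and tin, which encodes a homeobox factor of the heart, shows motif 7 (chr3R:21378785-21378864 on the plus strand). Hpf1 shows the E-box of motif 5 (chr3R:5791779-5791858 on the plus strand), Btk, a tyrosine kinase gene, shows a GA repeat read on the reverse strand (chr2L:8277727-8277806 on the minus strand), and PAN3, a gene of mRNA deadenylation, shows ACAGTG on the reverse strand (chr3L:3081476-3081555 on the plus strand). Gapdh2 shows a nuclear receptor half-site together with the A/T extension that makes it a Rev-erb monomer site (chrX:15867919-15867998 on the plus strand). The summit itself lies outside the stretches of CG11151, CG10068, Hpf1, Btk and PAN3.
CG11151: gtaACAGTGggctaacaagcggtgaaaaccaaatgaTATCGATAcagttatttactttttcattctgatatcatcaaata
CG10068: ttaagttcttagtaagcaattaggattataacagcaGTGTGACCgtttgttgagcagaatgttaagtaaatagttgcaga
tin: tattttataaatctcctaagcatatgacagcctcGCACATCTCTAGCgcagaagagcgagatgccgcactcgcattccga
Hpf1: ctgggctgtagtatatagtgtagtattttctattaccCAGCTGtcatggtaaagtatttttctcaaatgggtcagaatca
Btk: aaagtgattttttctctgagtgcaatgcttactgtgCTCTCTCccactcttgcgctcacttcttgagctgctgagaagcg
Gapdh2: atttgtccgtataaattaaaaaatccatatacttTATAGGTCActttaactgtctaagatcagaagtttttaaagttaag
PAN3: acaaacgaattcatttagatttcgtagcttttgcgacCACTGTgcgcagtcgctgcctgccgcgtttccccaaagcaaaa

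Summits were most numerous 101 to 200 bp upstream of TSSs. In the joint list the 100 bp next to the TSS upstream held 252 summits, the next 100 bp held 354, and the following stretches of 100 bp held 285 and 229, after which the number fell to 41 and 52 in the last ones before 1 kb. Downstream, the first 100 bp held 125 summits and the second 60. The replicates' own lists, each cut to its 8282 strongest peaks, had 273 ± 53.0 and 365 ± 31.5 summits (SD, n = 4) in the first and second 100 bp upstream, and 297.5 ± 9.15 in the third. Over all bases that could hold a member, the joint list had 251 summits per Mb, against 76.0 per Mb for the same zone downstream and 61.9 per Mb for the 6 arms as a whole. The replicates gave 265 ± 33.4 per Mb upstream and 89.4 ± 26.3 downstream (SD, n = 4).

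**Figure D1:**
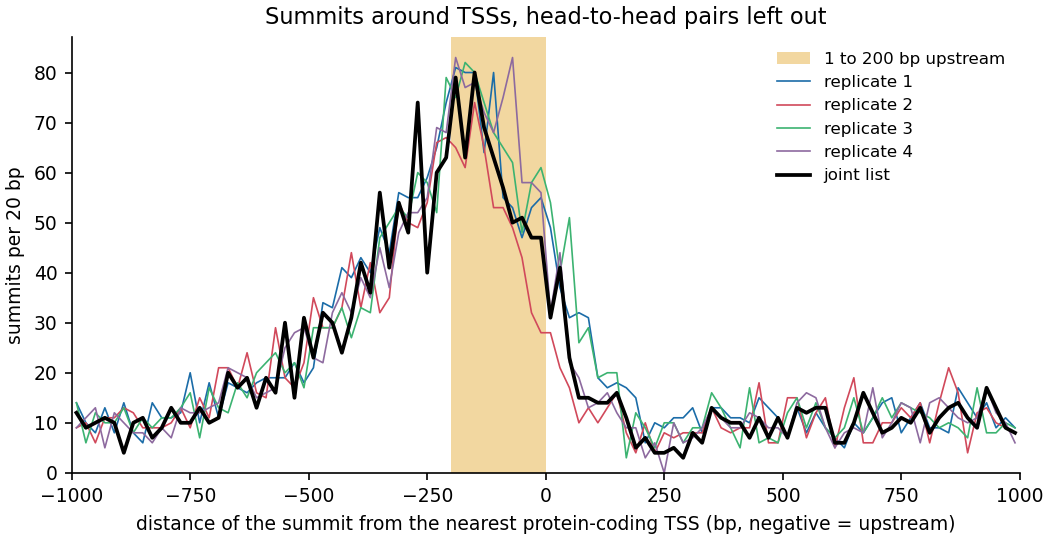
Number of summits per 20 bp (y axis) against the distance of the summit from the nearest protein-coding TSS in bp (x axis, negative is upstream), with head-to-head pairs left out. The black line is the joint list, the coloured lines are the 8282 strongest peaks of each replicate, and the shaded band from 1 to 200 bp upstream holds the 606 members; in all 5 lists the summits are more numerous upstream than downstream.

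Of the 8282 strongest peaks, 648, 523, 673 and 708 were members by the same rule in replicates 1 to 4, which is 7.82%, 6.31%, 8.13% and 8.55%. Replicate 2 was the lowest and replicate 4 the highest, and the mean was 7.70% ± 0.972 (SD, n = 4). The share 1 to 200 bp upstream exceeded the share within 200 bp downstream by 4.61, 4.62, 4.82 and 6.25 percentage points, a mean of 5.08 ± 0.790 (SD, n = 4). With no exclusion of head-to-head pairs the mean was 10.4 points. The difference had the same sign in 4 of 4 replicates, and the two-sided exact sign-flip permutation test gave p = 0.125, the smallest value that 4 replicates allow. Members were found at all strengths. They made up 8.82% of joint ranks 1 to 1656, 5.56% of ranks 3314 to 4969 and 7.91% of ranks 6627 to 8282, and 17 of the 100 strongest joint peaks. Below the joint list, in the pooled list of 30000 peaks that includes background, the share fell from 6.94% at ranks 8283 to 15000 to 2.54% at ranks 25001 to 30000.

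Within the 200 bp, the median peak was stronger in each bin farther from the TSS. The 118 members 1 to 50 bp upstream had a median signal of 133 (the authors' score, whose scale is not stated), the 134 at 51 to 100 bp one of 178, the 171 at 101 to 150 bp one of 208 and the 183 at 151 to 200 bp one of 312. Signals of different lists are on separate scales, so replicates were compared by rank, where 1 is the strongest of 30000 peaks and 30001 stands for no overlapping peak. The median rank of the members 1 to 50 bp upstream was 6042.5, 7423.5, 5683.5 and 6060.5 in replicates 1 to 4. At 151 to 200 bp it was 2123, 2865, 2332 and 2671. Every replicate placed the farther group well ahead of the nearer one, and the 2 sets of 4 values did not overlap. The mean gap of 3805 ranks was 2439 with no exclusion of head-to-head pairs and 861 among joint peaks above the median signal. The means over replicates were 6302.5 ± 767, 4792 ± 724, 3933 ± 312 and 2498 ± 333 (SD, n = 4) from the nearest bin to the farthest. All 4 replicates met 30.5% of the nearest group with one of their 8282 strongest peaks and 68.3% of the farthest. These bins were drawn after the values were known, so no test is given.

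**Figure D2:**
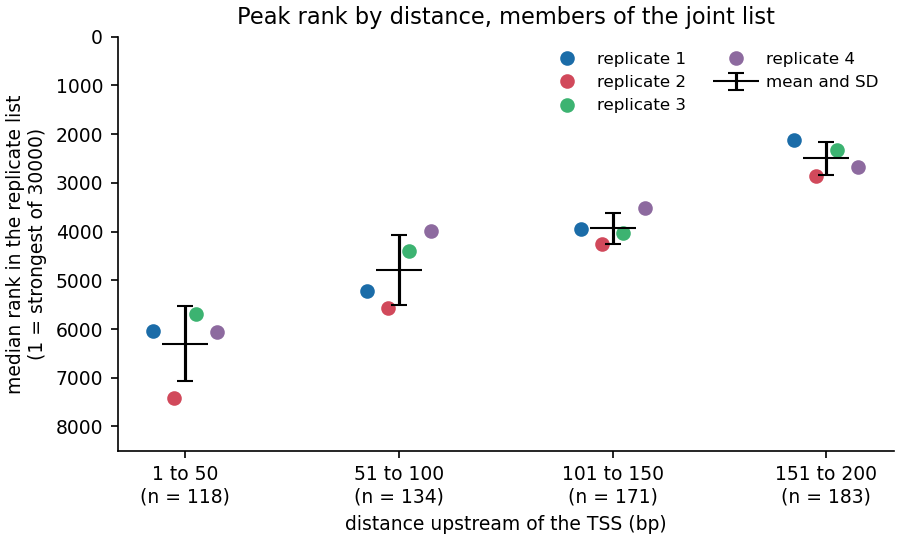
Median rank of the members in each replicate list (y axis, reversed so that stronger peaks are higher) in 4 bins of distance upstream of the TSS in bp (x axis, number of joint-list members in brackets). Points are replicates, and bars give the mean and SD of 4 replicates; the means go from 6302.5 at 1 to 50 bp to 2498 at 151 to 200 bp.

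In bins of 100 bp, the medians showed no further steady gain beyond 200 bp upstream. The bin of 101 to 200 bp joins those of 101 to 150 and 151 to 200 bp, whose means were 3933 ± 312 and 2498 ± 333. Summits 101 to 200 bp upstream had a mean of replicate medians of 3109 ± 249, those 201 to 300 bp upstream 3348 ± 170 and those 301 to 400 bp upstream 3388 ± 233 (SD, n = 4). Farther bins of 100 bp ran from 2790 ± 316 at 601 to 700 bp to 3898 ± 451 at 901 to 1000 bp. On the other side of the TSS, summits 0 to 99 bp downstream had a mean of 6130 ± 1320 and those 100 to 199 bp downstream 5115 ± 435. Bins farther downstream varied without order, from 3153 ± 285 at 300 to 399 bp to 5154.5 ± 738 at 600 to 699 bp. At the limit itself, the 19 members in the last 5 bp inside it had a median signal of 319 (range 113 to 1213), and the 20 summits in the first 5 bp outside it had one of 202 (range 107 to 877). At the TSS, the 12 members in the first 5 bp had a median signal of 122 (range 104 to 331), and the 9 summits 0 to 4 bp downstream had one of 141 (range 108 to 569). The limits are resolved only as far as summits repeat. The summit of the nearest overlapping replicate peak lay a median of 18.4 ± 1.60 bp from the joint summit (SD, n = 4), and 84.6% ± 3.46 lay within 50 bp. Of the members, 257 (42.4%) had the commonest interval of the joint list, 430 bp wide with the summit in the middle. The median signal of these members was 126, against 331 for the other members. Of all other joint peaks, 36.8% had this width.

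The 20 strongest members lay toward the outer end of the window, with summits 86 to 187 bp upstream (median 158), 19 of them over 100 bp. Among all members 354 (58.4%) lay over 100 bp upstream. The median distance was 118.5 bp in the joint list and 116, 122, 114 and 106.5 bp in replicates 1 to 4. The 298 members in the weaker part of the joint list, cut at its median signal, had a median distance of 88.5 bp.

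The strongest member, upstream of CG14100 (FBgn0036889), was also the strongest peak of the joint list. Its summit lay 86 bp upstream, and it ranked 2, 1, 4 and 1 in replicates 1 to 4. CG18549 (112 bp) followed, with replicate ranks of 9, 14, 11 and 15. Hsp27, a small heat shock protein gene that ecdysone is also known to induce, had its summit 158 bp upstream and ranked 17, 24, 16 and 18. All 3 stayed among the 24 strongest of the 30000 peaks in every replicate. They were picked by joint signal, which comes from the pooled replicates, so high ranks in each replicate follow in part from that choice. CG31145 (187 bp) ranked 20, 20, 25 and 22, and CG13921 (134 bp) 28, 17, 20 and 23. The casein kinase 1 gene gish (159 bp) ranked 14, 27, 33 and 26, with its summit in an intron of the gene, upstream of an internal start. SLC5A11, a gene of the sodium-coupled solute carriers, had ranks of 15, 58, 26 and 44 at 158 bp.

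Trp1, which encodes a protein of the translocation machinery of the endoplasmic reticulum, ranked 68, 39, 54 and 35. Hpf1, named for a histone PARylation factor, ranked 55, 53, 61 and 63, the tightest run among these. The ranks of Gapdh2, a glycolysis gene, spread more widely, at 22, 129, 27 and 82, and those of Tina-1 most of all, at 31, 299, 50 and 103. In both, replicate 2 gave the weakest rank and replicate 1 the strongest. The gene aay, which encodes phosphoserine phosphatase, ranked 57, 98, 105 and 45, nebu 119, 75, 84 and 58, and brwl 70, 112, 75 and 114. REPTOR, a transcription factor gene of the TORC1 pathway, ranked 94, 143, 76 and 90. Dph1, of diphthamide synthesis, ranked 97, 103, 99 and 131, and CG1827 ranked 100, 111, 96 and 100. The last 3 of the 20 were CG1607 (213, 108, 125 and 105), PAN3 (75, 177, 109 and 136) and fok (91, 165, 111 and 221).

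**Figure D3:**
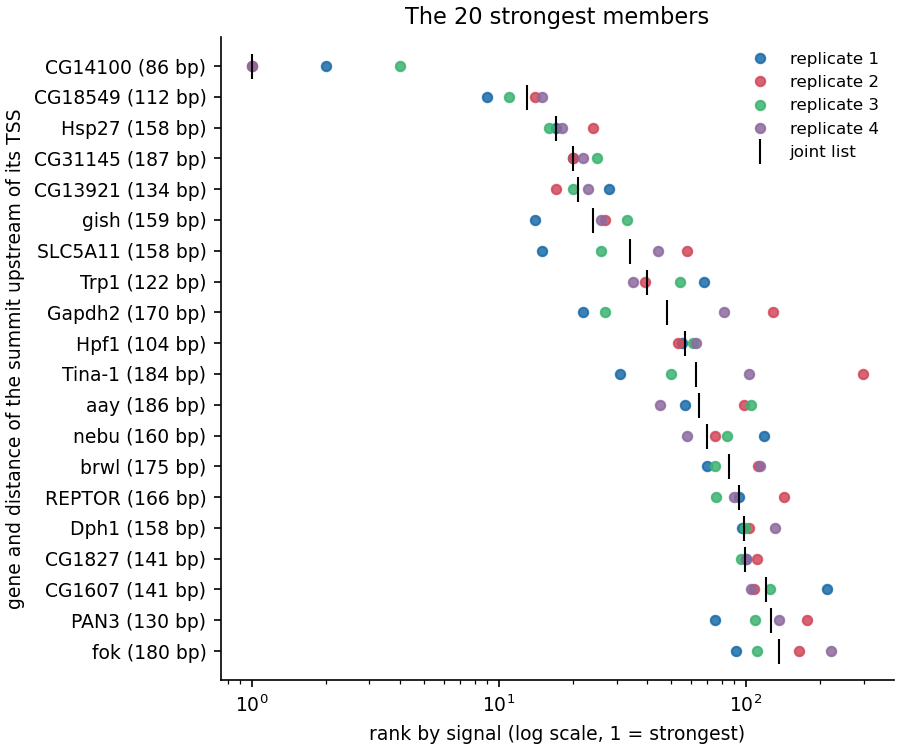
Rank by signal (x axis, log scale, 1 is the strongest) of the peaks at the 20 strongest members (y axis, gene with the distance of its summit upstream of the TSS in bp). Coloured points are the 4 replicates and black ticks the joint list; the widest spread is at Tina-1, from 31 to 299.

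Replicates differed in how many members they carried. Replicates 1 to 4 met 81.8%, 71.9%, 81.5% and 85.5% of the members with one of their 8282 strongest peaks, a mean of 80.2% ± 5.79, and 83.9% ± 1.19 of all other joint peaks (SD, n = 4). Replicate 2 was the low one for the members, where it fell 12.2 points short of its own value for the other peaks. The differences in the other replicates were between -2.61 and 0.382 points. The mean difference was -3.72 ± 5.81 points and did not pass (two-sided exact sign-flip permutation test, p = 0.25), and without replicate 2 it was -0.880 points. All 4 replicates met 320 of the members (52.8%) and 61.8% of the other peaks, and no member was met by none. Of the members that a replicate met, 84.1% ± 2.76 (SD, n = 4) had a summit of that replicate within 200 bp upstream of the same gene. Over all members, met or not, the same gene had such a summit in all 4 replicates for 214 members and in none for 19. For CG31145 and aay, whose joint summits lay 187 and 186 bp upstream, it had one in 2 and 1 of the replicates.

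In strength the members stood between the neighbouring classes. Their median rank was 4207.5, 4658.5, 3992 and 3664.5 in replicates 1 to 4. Summits over 200 and up to 1000 bp upstream had medians of 3266, 3438, 3422 and 3619, so the members ranked lower in 4 of 4 replicates, by 694 ± 508 ranks (SD; p = 0.125, the smallest that 4 replicates allow, two-sided exact sign-flip permutation test). The gap was 44.5 ranks when only joint peaks above the median signal were used (p = 0.625), 338.5 with no exclusion of head-to-head pairs (p = 0.375) and 495 with the rank of the nearest summit (p = 0.25, all by the same exact test), and under these 3 settings its sign varied between replicates. Summits within 200 bp downstream had medians of 5599, 6753, 4968 and 5622, and the members ranked ahead of them in 4 of 4 replicates, by 1605 ± 518 ranks (p = 0.125, same exact test). Among joint peaks above the median signal this difference was -272.5 ranks, and with no exclusion of head-to-head pairs it was -1038.5. Against all other joint peaks the difference was 5.12 ± 481 ranks and its sign varied between replicates (p = 1, same exact test). A replicate rank is that of the strongest peak that overlaps, so a member can take the rank of a neighbour. At papi, a joint interval held a member summit of rank 1810, 77 bp upstream, together with a stronger summit, and the member was given ranks of 80, 120, 69 and 108. There were 19 members that shared an interval with another joint summit.

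Counted by gene, 585 of the 9344 protein-coding genes with a base that could hold a member had one, which is 6.26%. In the replicates the share was 6.55% ± 0.814 (SD, n = 4). A gene at a head-to-head promoter could not have a member, so gene lists are given over their eligible genes. Genes with 2 members numbered 19, and MEP-1 had 3.

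Ribosomal protein genes had a share well above that background. Of 86 genes for cytoplasmic ribosomal proteins 34 were eligible, and 14 of them had a member (41.2%). The replicates gave 35.3%, 29.4%, 32.4% and 55.9%, all above the 6.26% of eligible genes, with replicate 4 far above the other 3. Without replicate 4 the mean share was 32.4%, against 38.2% with it. Their summits in the joint list lay close to the TSS, at 1 to 58 bp upstream with a median of 29 bp. In the replicates' own lists the median distance at these genes was 31.5, 40, 18 and 41 bp, where that of all members was 116, 122, 114 and 106.5 bp. These medians did not overlap, although the farthest summit at a gene of the list lay 95, 101, 97 and 132 bp upstream in the replicates. RpS4 (20 bp upstream) had the strongest peak, with ranks of 1278, 1204, 1754 and 796. RpS10b (25 bp) followed with 1697, 1781, 1551 and 1213, RpL30 (33 bp) with 2104, 1834, 1826 and 1023, and RpS3A (52 bp) with 2040, 1682, 1834 and 1416. In all 4, replicate 4 gave the strongest rank. These are ranks of overlapping peaks, and the replicates' own summits did not always fall in the window. RpS4, RpS10b, RpL30 and RpS3A had a member summit in 1, 4, 2 and 3 of the replicates. The joint summits of RpS4 and RpL30 lay in a UTR of the same gene, upstream of an internal start. Near-identical copies of ribosomal protein genes elsewhere could take or give reads, and how such reads were placed is not given in the sources used here. A further 45 summits nearest to genes of this list lay at head-to-head promoters and were not members.

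Other lists of protein synthesis and housekeeping had lower shares in the joint list, and the difference between lists was not tested. Translation factors had 3 of 28 eligible genes with a member (10.7%), with eEF1gamma, a subunit of the elongation factor that recharges eEF1A, 34 bp upstream at replicate ranks of 851, 575, 867 and 316. eEF2, the translocation factor, had its joint summit 20 bp upstream of an internal start, in a UTR of the same gene. The overlapping peaks ranked 4572, 6360, 2946 and 2636, but no replicate had a member summit of its own at this gene. For eIF2A the joint summit lay 58 bp upstream. Mitochondrial ribosomal proteins had 1 of 16 (mRpL19), aminoacyl-tRNA synthetases 0 of 11, and the respiratory chain with ATP synthase 1 of 45 (ND-B22), or 2.22%. Proteasome subunits had 2 of 11 (Rpn11 and Rpn12), and vacuolar ATPase subunits 1 of 20 (Vha16-1). RNA polymerase II and its general factors had 1 of 13 (Polr2F), and Rab GTPases 1 of 14 (Rab11). Splicing factors had 0 of 4 and histones 0 of 1, and most genes of both lists were not eligible.

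Glycolysis and lipid genes with a member had their summits 139 to 192 bp upstream, toward the outer end. In glycolysis 3 of 9 eligible genes had one (33.3%), and the replicates gave 33.3% or 44.4%. Gapdh2, for glyceraldehyde-3-phosphate dehydrogenase, lay at 170 bp, Ldh, for lactate dehydrogenase, at 186 bp with replicate ranks of 79, 257, 168 and 189, and Hex-A, for a hexokinase, at 165 bp with ranks of 184, 268, 296 and 181. Replicate 2 gave the weakest rank at Gapdh2 and Ldh. In lipid metabolism 4 of 11 had one (36.4%), but the replicates ranged from 9.09% to 45.5%. They were whd, the carnitine palmitoyltransferase 1 gene (139 bp; ranks 1447, 2585, 1035 and 1103), the lipase gene Lip4 (192 bp), mdy (188 bp) and Acsl (139 bp), and the last was the weakest peak of the whole joint list. Insulin and growth genes had 2 of 12, REPTOR at 166 bp and InR, the insulin receptor gene, at 88 bp with uneven ranks of 5018, 1417, 8399 and 1218.

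Heat shock protein genes had 4 of 19 with a member (21.1%; replicates from 10.5% to 21.1%). After Hsp27 came Hsp26, another small heat shock protein gene (124 bp; ranks 457, 814, 293 and 533), and then the mitochondrial chaperonin gene Hsp60A (115 bp) and Hsp23 (66 bp), whose joint ranks were 7030 and 7786. Of the ecdysone response genes 3 of 22 had a member (13.6%; replicates 22.7%, 13.6%, 27.3% and 13.6%), and all 3 peaks were of middle or low rank. Eip93F, a factor gene of late metamorphosis, had its summit 81 bp upstream, with ranks of 5326, 3289, 1923 and 11066. The coactivator gene tai (131 bp; 20080, 11186, 4029 and 11316) and ftz-f1, the competence factor gene (138 bp; 8632, 21546, 8419 and 5890), were each among the 8282 strongest peaks of 1 replicate. Among 17 eligible nuclear receptor genes ftz-f1 alone had a member in the joint list. The circadian list had 1 of 12, sgg, the glycogen synthase kinase 3 gene, at 182 bp with ranks of 161, 161, 193 and 129.

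The 2 largest tissue-restricted families had no member in the joint list. Of 154 eligible chemosensory receptor genes none had a member in the joint list, which allows a share of up to 1.95%, and replicates 1 and 3 each had 1 such gene. Of 85 cuticle protein genes none had one in the joint list or in any replicate, which allows up to 3.53%. These limits cover counting error only. The same count of 0, in the joint list and in each replicate, held for 15 genes of chorion, vitelline membrane and yolk, 18 trypsin-like and Jonah proteases and 5 salivary glue genes. It allows shares of up to 20%, 16.7% and 60% there, above the 6.26% of all eligible genes, so these lists are too short to be told apart from it. The same is true of autophagy (0 of 8, up to 37.5%) and cell death genes (0 of 9, up to 33.3%) in the joint list. Hox and patterning genes had 3 of 20, Dll, wg and ap, at joint ranks of 6441, 7999 and 8111. Among marker genes of tissues, the lists for neurons (6 eligible), fat body (6), gut (4) and salivary gland (3) had none in the joint list, and the muscle list had 1 of 6, Tm1, a tropomyosin gene.

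**Figure D4:**
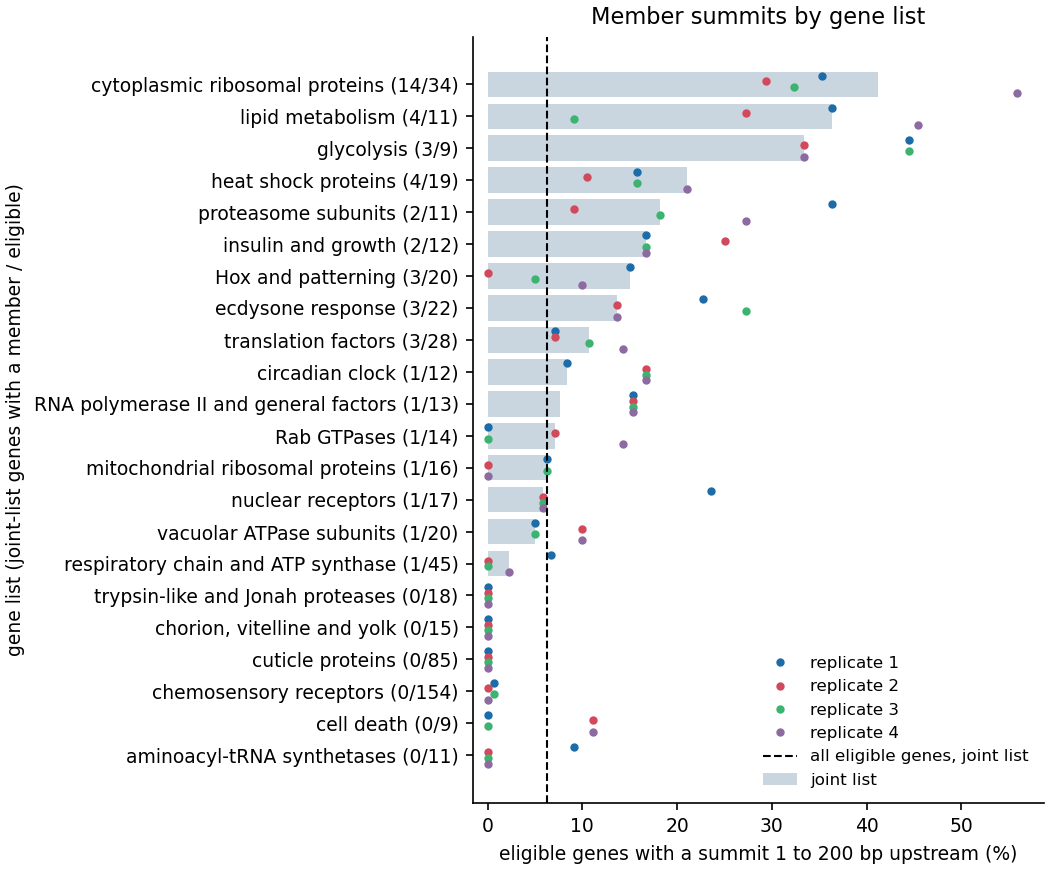
Percent of eligible genes with a summit 1 to 200 bp upstream (x axis) for each gene list with 9 or more eligible genes (y axis, genes with a member and eligible genes in brackets). Bars are the joint list, points the replicates, and the dashed line is the 6.26% of all eligible genes; cytoplasmic ribosomal proteins reach 41.2%, and their 4 replicates lie between 29.4% and 55.9%.

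Genes with a member were longer and had more starts than the rest. Their median length was 5349 bp, against 2177 bp for the other 8759 eligible genes, and 55.4% had more than 1 TSS, against 26.4%. Fewer were known by a CG number alone (26.0% against 48.8%). A gene with more TSSs has more bases that can hold a member. By position, 350 members (57.8%) were intergenic, 183 lay in introns, 48 in UTRs, 4 in coding exons and 21 in non-coding genes only. The summit lay inside the span of its own gene, upstream of an internal start, in 186 members (30.7%), and these had a median replicate rank of 3929 ± 400, against 4281 ± 469 for the other 420 (SD, n = 4). Of the summits over 200 and up to 1000 bp upstream, 44.6% lay inside the span of their own gene. There 43.6% were intergenic and 51.0% lay in introns, against 30.2% of members in introns. The peak interval reached over the TSS in 77.2% of members. Another joint summit lay within 1 kb of 137 members (22.6%). By arm, members were found at 6.00% to 6.53% of eligible genes on the 5 large arms and at 6 of 64 genes on arm 4, and 302 of the 606 were upstream of plus-strand TSSs.

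Several core promoter elements had higher shares around the summits than in the flanks, although none passed the test, nor could with 4 replicates. The flanks lay 500 bp farther from the TSS, so nearness to the summit and to the TSS cannot be told apart here. In 200 bp windows centred on each replicate's member summits, 20 motifs were sought on both strands and compared with windows 500 bp farther upstream. The DRE (TATCGATA) was in 4.81% ± 0.585 of the member windows and 0.802% ± 0.257 of the flanks (SD, n = 4). The core of motif 1 (GGTCACAC) was in 3.47% ± 0.422 and 0.0757% ± 0.0875, and motif 7 in 6.34% ± 1.08 and 1.96% ± 0.206. The E-box of motif 5 (CAGCTG) was in 13.5% ± 0.569 and 7.32% ± 0.997, and a GA repeat (GAGAGAG) in 11.1% ± 2.84 and 4.32% ± 0.594. With the 5-letter end of the DRE (CGATA, which every DRE holds), these were the 6 motifs higher at the summit in 4 of 4 replicates. Each gave p = 0.125 by the two-sided exact sign-flip permutation test, the smallest that 4 replicates allow, and an adjusted p of 0.3125 over 20 motifs, so none passed. The background in all 12783 eligible promoters, read in the 200 bp before the TSS, was 3.72% for the DRE, 1.78% for motif 1, 3.59% for motif 7, 11.1% for the E-box and 7.76% for the GA repeat. The G and C content was 39.2% ± 0.926 in members and 39.6% ± 0.216 in flanks (SD, n = 4).

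In the replicates' lists Rev-erb type sites had lower shares at member summits than in the flanks. Their shares were higher than at summits within 200 bp downstream, a direction that the joint list reversed. Neither difference passed the test. The nuclear receptor half-site (AGGTCA) was in 3.47% ± 0.836 of the member windows, 4.77% ± 0.504 of the flanks and 3.62% of all eligible promoters, and it was lower than in the flank in 4 of 4 replicates (p = 0.125, adjusted p = 0.3125, same permutation test). Its extended form, the Rev-erb monomer site (A or T, then any base, then TAGGTCA), was in 0.607% ± 0.238 of the member windows, 1.09% ± 0.366 of the flanks and 0.540% of promoters. It overlaps the half-site in every case. Within 200 bp downstream the half-site was in 2.17% ± 0.0648 and the extended form in 0.0940% ± 0.188 of the windows, both lower than in members in 4 of 4 replicates (p = 0.125, adjusted p = 0.25, same permutation test). The extended form was in 0.376% of the downstream windows of replicate 1 and in none of replicates 2, 3 and 4. The joint list went the other way, with the half-site in 2.97% of member windows and 3.78% of those downstream. There the extended form was in 0.825% and 1.08%. Over 200 and up to 1000 bp upstream they were in 3.82% ± 0.150 and 0.660% ± 0.0762, and the sign varied between replicates. In the joint list 5 members had the extended form, and Gapdh2 was the strongest of them. No window of any class held a direct repeat of half-sites 2 bp apart, and 1 member, Pfas, held the inverted repeat of the ecdysone receptor. A match or its absence concerns these letters in these windows only.

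Shares also differed between classes of summit. Within 200 bp downstream the DRE was in 3.20% ± 0.651 and motif 1 in 6.21% ± 0.738 of the windows, so the members had more of the former and less of the latter in 4 of 4 replicates. Over 200 and up to 1000 bp upstream both were rare, at 0.663% ± 0.0654 and 0.492% ± 0.123. The DRE, its CGATA end, the E-box and the GA repeat were higher in members than in both classes in every replicate, and the smallest adjusted p was 0.25 against each class. The TATA box (TATAAA) was in 29.5% ± 1.12 of the member windows, 18.7% ± 2.45 of those downstream and 35.3% ± 2.37 of those farther upstream. The initiator (TCAGT followed by C or T) was in 19.7% ± 2.63, 24.7% ± 3.05 and 18.7% ± 0.544. In all eligible promoters, read in the 200 bp before the TSS, the TATA box was in 31.7% and the initiator in 22.6%. Promoters with and without a member had the TATA box in 30.2% and 31.8% there and the initiator in 16.2% and 22.9%. These promoter windows end before the TSS, so an initiator that spans the TSS is not counted in them. In the member windows of the joint list, the initiator matches lay a median of 82 bp upstream of the TSS. The initiator shares are therefore counts of these letters at any place in the window. The G and C content was 43.0% ± 1.20 downstream and 35.0% ± 0.500 farther upstream, and its part in the A/T-rich TATA counts was not tested.

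Among the members, shares moved with distance from the TSS, in bins drawn after the values were known and with no test. The DRE was in 9.63% ± 3.01 of the windows of members 1 to 50 bp upstream, 6.84% ± 2.50 at 51 to 100 bp, 3.53% ± 1.72 at 101 to 150 bp and 1.32% ± 0.265 at 151 to 200 bp (SD, n = 4). Motif 1 went from 7.09% ± 1.72 in the nearest group to 1.10% ± 0.579 in the farthest, and motif 7 from 9.86% ± 2.58 to 2.52% ± 1.51. The TATA box went the other way, from 17.4% ± 1.82 to 37.0% ± 2.45. A window centred farther out covers less of the core promoter, and those of the outer bins stop short of the TSS, whose part in these shares was not tested. In the joint list the centres of the DRE matches lay a median of 62 bp upstream of the TSS, those of motif 1 26 bp upstream and those of TATAAA 148 bp upstream, farther out than the place of a canonical TATA box. Of the 20 strongest members 10 had none of 8 core motifs (DRE, motifs 1, 5, 6 and 7, GA repeat, TATA box, initiator) in the window, as did 37.0% of all members. Among members 151 to 200 bp upstream the share with none was 43.2%. It was 50.8% in the flanks, 42.2% within 200 bp downstream and 40.4% over 200 and up to 1000 bp upstream.

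**Figure D5:**
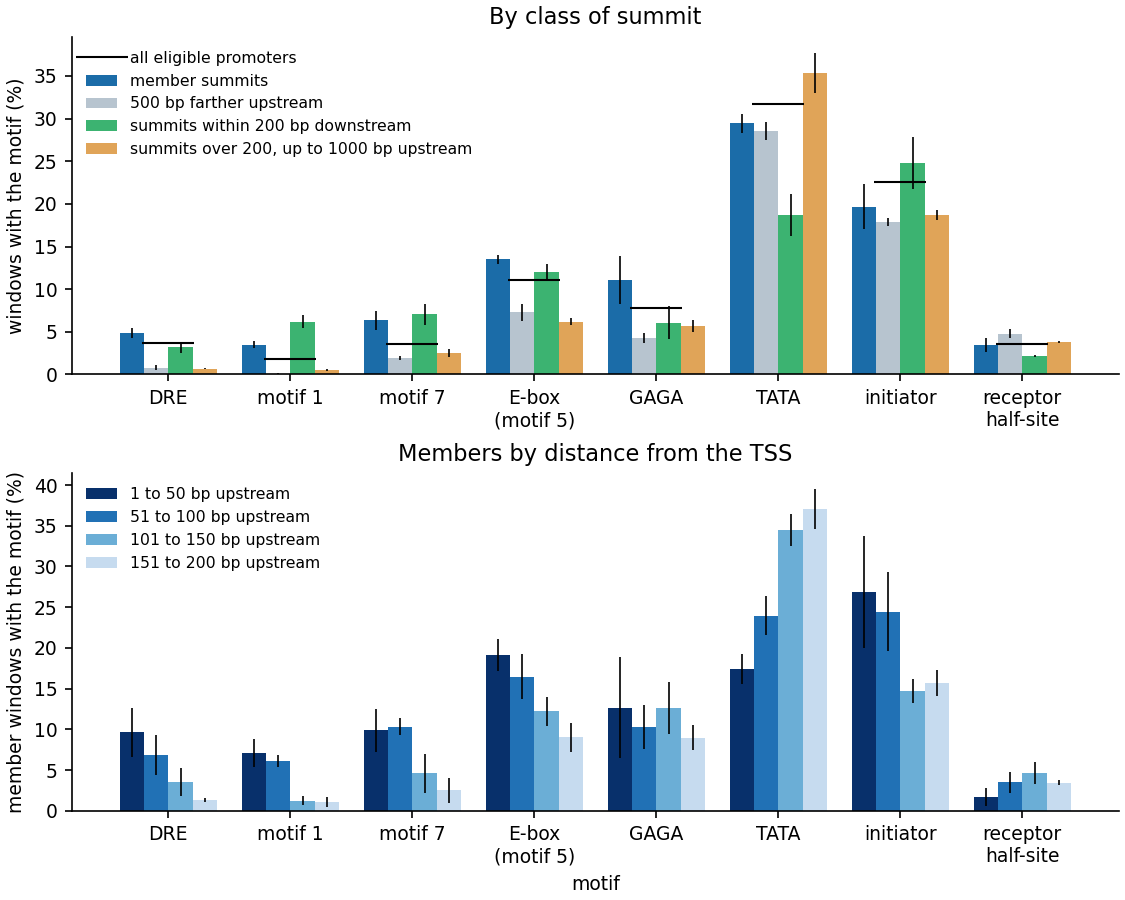
Percent of 200 bp windows that hold each motif (y axis, bars are means and lines SD over 4 replicates). The upper panel compares classes of summit, with a black line for all eligible promoters, and the lower one compares members in 4 bins of distance upstream of the TSS; the DRE falls from 9.63% to 1.32% and the TATA box goes from 17.4% to 37.0% between the nearest and the farthest bin.

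A search of all 6-letter words, made after the values were seen and given with no test, ranked words by the difference in share between eligible promoters with and without a member, divided by its binomial standard error. The first was ACAGTG, found on either strand in 18.2% of promoters with a member and 8.06% of those without. It was in 16.7% of the member windows of the joint list, 6.27% of the flanks and 13.5% of the windows within 200 bp downstream, but also in 18.1% of those over 200 and up to 1000 bp upstream. The replicates gave 13.1%, 18.9%, 15.6% and 16.1% in members and 7.38% ± 0.317 in flanks (SD, n = 4). Around the member summits the word was most frequent on the side of the gene. It had 20, 23 and 21 occurrences at 50 to 75, 75 to 100 and 100 to 125 bp from the summit. The word was chosen in the 200 bp before the TSS of these same promoters. That stretch overlaps the member windows and the side of the gene. The excess over the flanks and this position therefore follow in part from the choice. The second word, ACACTG, shares the letters CACTG with the reverse strand of ACAGTG, so the same stretch can hold both words. It also overlaps the longer form of motif 1. In the joint list it was in 22.1% of member windows, and in 20.03% of those without the core of motif 1. Its share was 6.44% in flanks, 17.8% within 200 bp downstream and 14.0% over 200 and up to 1000 bp upstream.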

How the data were processed

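Chromatin of 4 biological replicates was immunoprecipitated with an antibody against GFP and sequenced, per the labels. The authors deposited narrowPeak lists on dm6: 30000 peaks including background for each replicate and for the pooled alignments, called with a control alignment, and a joint list of 8282 peaks thresholded by irreproducible discovery rate, per the records deposited with the samples. Those records name 3 replicate lists (2, 3 and 4, not 1) with the pooled list as sources of the joint list, which equals the 8282 strongest peaks of the pooled list. For the aligner, the peak caller and the threshold, neither names nor versions are given in the sources used here. The signal is a score of the authors' caller with no stated scale, so lists were compared by rank. The deposited −log10 q-value was 4.26 for every joint peak and was not used to rank. The summit is the peak start plus the deposited summit offset. The same lists on dm3 were not used. No read counts were given, so the depth is unknown. Columns of other samples left out numbered 0.

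TSSs came from the Ensembl release 115 annotation (13968 protein-coding genes, 19630 TSSs, 3677 head-to-head pairs). A replicate met a joint peak where one of its 8282 strongest peaks overlapped it by at least 1 bp. Differences were tested by the two-sided exact sign-flip permutation test over the 4 replicates (16 patterns, smallest p 0.125) against a threshold of 0.05, so no difference could pass, and p-values over the 20 motifs were adjusted by Benjamini-Hochberg. Limits for a count of 0 used 3 counts. Sequences were read from the RefSeq genome of dm6, and promoters were the 200 bp before each eligible TSS. The scripts ran on Python 3.11.15, numpy 2.4.6 and pandas 2.3.3 and were tested on simulated data. Genes named are those of the 20 members with the highest signal, up to 4 per gene list, and strong holders of each motif. Other genes were chosen after their values were seen. Stretches on arm 2R, past the TSS or with many bases of an annotated UTR were not printed. CG11151 and tin are therefore not the strongest holders of the DRE and motif 7, which are CG1827 and TRAM. The members, the 31 gene lists and the motifs were chosen with earlier results of these data known. Alternatives covered the TSS set, the exclusion of head-to-head pairs, the distance limit, the stronger part of the list and each replicate left out.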

Additional observations from a re-analysis of the deposited data

Results flagged for a closer look

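Among 69 values of 4 replicates each that were screened for a replicate far from the others, 3 stood apart, and chance alone gives about 1 in 20. The share 1 to 200 bp upstream exceeded that within 200 bp downstream by 6.25 percentage points in replicate 4, against 4.61 to 4.82 in the other replicates. The TATA box was in 27.8% of the member windows of replicate 3, against 29.9% to 30.1% in the others. The median distance between joint and replicate summits over 200 and up to 1000 bp upstream was 25 bp in replicate 2 and 22 bp in each of the others.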

How the results depend on the processing

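Of the comparisons, the excess of the upstream over the downstream share kept its direction under every alternative run, with a mean of 10.4 points with no exclusion of head-to-head pairs, 3.67 with 1 TSS per gene, 6.06 above the median signal and 4.68 to 5.23 when 1 replicate was left out, where the smallest p is 0.25. The number of members was 1113 with no exclusion of head-to-head pairs, 308 above the median signal of the joint list and 252 with a limit of 100 bp, and the number of genes was 1076, 301 and 249. The mean share of summits in the window was 15.2% with no exclusion, 5.84% with 1 TSS per gene and 7.42% to 8.17% with 1 replicate left out. The difference in overlap with replicates between members and other peaks turned to 1.38 points above the median signal, and ranged from -5.08 to -0.880 with 1 replicate left out. The difference in median rank between members and other peaks had no stable sign. It was -426.5 with no exclusion, -401 above the median signal, -64.6 with the rank of the nearest summit (an alternative chosen after seeing the data) and -201 to 184.5 with 1 replicate left out, with -14.8 without replicate 1 and -201 without replicate 2. With 1 replicate left out, the rank difference was 519 to 911 against summits farther upstream and -1815 to -1442 against those downstream, the summit offset was 17.8 to 18.8 bp, and motifs higher in every replicate than in the flank, and than in both classes, numbered 6 to 8 and 4 to 5. Against a flank on the downstream side 9 motifs were higher. The rank difference between the nearest and the farthest bin was 3805, 3554 to 3956 with 1 replicate left out, 2439 with no exclusion and 861 above the median signal, and the ribosomal protein share was 50.6% with no exclusion. The cause of these changes was not tested, except that fewer or more summits enter by construction. No paired analysis was possible because all samples form 1 group, so no groups share replicate numbers, and the tests given compare classes of summit within each replicate. The unknown depth limits what a missing peak means.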
